A study of Drosophila melanogaster with 6 samples.

Results

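Genes of Drosophila melanogaster that still carry only a CG number were compared between eye-antennal discs driven by activated Ras and discs driven by a secreted EGF receptor ligand, and 55 of 4456 such genes on the array met a rule of size and separation. A CG number is the identifier that genome annotation gave to a predicted gene, and a gene keeps it as its symbol until a study names it. The members were chosen by 4 criteria: 1 gene per probe set with a current symbol of CG and digits only, a mean signal of at least 25 over 6 arrays, 3 values of 1 genotype that all lay above the 3 values of the other, and a difference of at least 0.7 between the group means of log2(signal + 16). Of 10828 genes with a probe set of their own, 55 met the rule with 58 probe sets, 22 genes (22 probe sets) higher and 33 genes (36 probe sets) lower in RasV12. The rule leaves out 6 further genes by name, CG12310, CG13460, CG13461, CG11300, CG13947 and CG14265. The same contrast chose the members, so their values are a description and carry no test.

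The discs, which are the larval epithelia of the later eye and antenna, were dissected from wandering larvae of the 3rd instar kept at 25 °C. One genotype was GMR Gal4/UAS RasV12 and the other GMR Gal4/+; UAS sSpi/+, with 3 single-colour Affymetrix arrays each, every array from 100 discs. The titles call the arrays biological replicates. Both genotypes carry GMR-Gal4, which drives expression in the eye disc behind the morphogenetic furrow, the moving front where photoreceptor differentiation starts; the antennal part and the cells ahead of the furrow do not express the driver but are in the sample. No discs without a transgene were analysed here, so "higher" and "lower" compare the 2 genotypes only. Grouping followed the titles and genotype fields, although the free-text description of the sSpi arrays speaks of RasV12.

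Ras is a small GTPase that relays signals from receptor tyrosine kinases to the MAP kinase cascade, and RasV12 is a form locked in the active state that works within the producing cell. Spitz is the main ligand of the EGF receptor in the eye disc, and sSpi is its secreted form, which can act on neighbouring cells through the receptor. In the eye disc this pathway recruits photoreceptors, cone cells and pigment cells, supports survival and controls the cell cycle. Roles given below for CG genes are family assignments from general knowledge, used only to order the text, and genes without a stated role are described by their values.

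The eye identity of the samples was visible in their markers. The signal of gl, a zinc finger gene of cells behind the furrow, lay between 285 and 334 on the 6 arrays, and that of eya, a retinal determination gene, between 655 and 859. Pearson's r between arrays of log2(signal + 16) was 0.961 to 0.983 within RasV12, 0.971 to 0.978 within sSpi and 0.948 to 0.967 across genotypes. Over the whole table, 219 of 8380 probe sets (2.61%) passed a limma Benjamini-Hochberg adjusted p of 0.05, 109 of them higher and 110 lower in RasV12. By mean list score, RasV12 replicate 1 stood apart from its genotype in ecdysone response and neuronal genes, and sSpi replicate 2 in salivary glue genes. By the same score, sSpi replicate 3 stood apart in ecdysone response and muscle genes. Values are given below, and the neuronal genes did not all follow their score. Counts of members are also given without the first 2 of these arrays and without sSpi replicate 3.

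The 22 probe sets higher in RasV12 were 0.944% of the 2330 CG-numbered probe sets with a mean signal of at least 25, and the 36 lower ones 1.55%. Over all 7331 probe sets of 1 gene at that signal, the same size and separation criteria were met by 1.15% in the higher and 1.27% in the lower direction. Among probe sets of genes with other names the shares were 1.24% and 1.12%. The shares of CG-numbered probe sets thus lay near the background in both directions, and nothing is read from them. Groups that did not overlap, at any size of difference, were found for 221 higher and 239 lower CG-numbered probe sets (9.48% and 10.3%), against 10.1% and 11.4% over all probe sets of 1 gene and 10.4% and 11.9% over those of genes with other names. The size criterion therefore removed most of the separated probe sets.

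The median log2 difference, RasV12 minus sSpi, was 1.06 over the 22 higher probe sets, with a range of 0.72 to 1.93. Over the 36 lower ones it was -0.97, with a range of -2.63 to -0.71. Over all CG-numbered probe sets with a mean signal of at least 25 it was -0.00719. A log2 difference of at least 1, a 2-fold change on this scale, was reached by 13 of the higher and 18 of the lower probe sets. Because 16 is added before the logarithm, the differences of dim genes come out smaller than their signal ratios. Errors of differences are standard errors from the fit over the whole table. In whole discs, fewer cells of a type and less RNA per cell cannot be told apart.

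**Figure D1:**
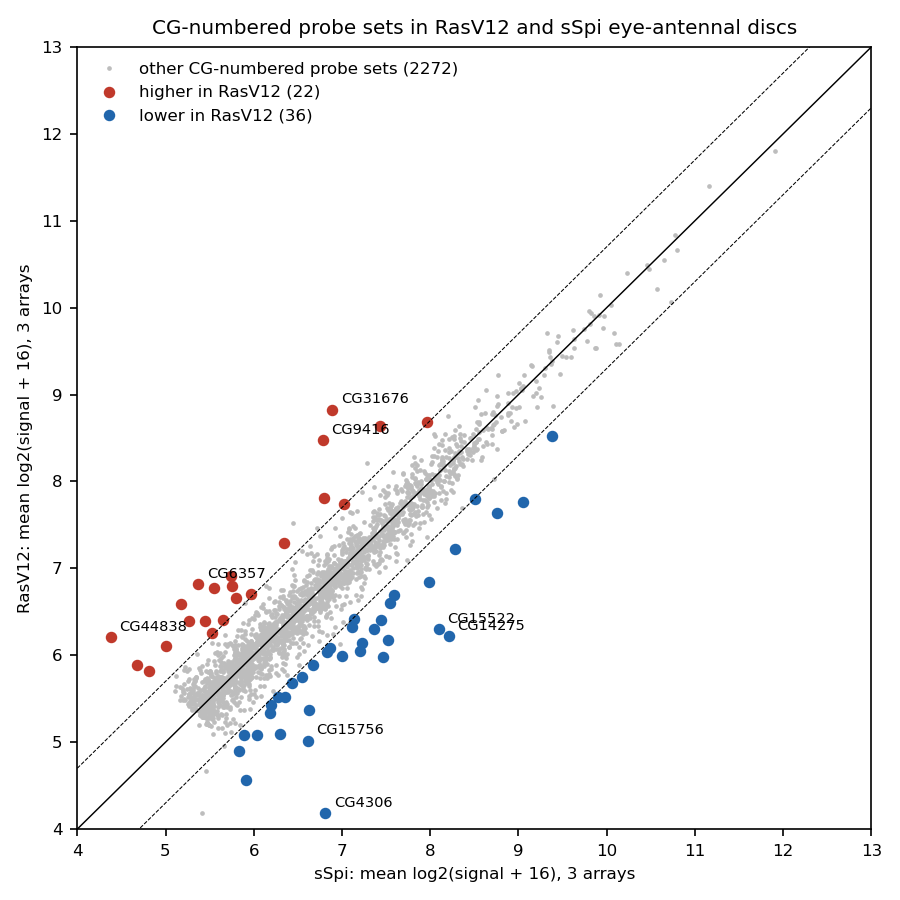
Mean log2(signal + 16) over 3 RasV12 arrays (vertical axis) against the mean over 3 sSpi arrays (horizontal axis) for 2330 CG-numbered probe sets with a mean signal of at least 25. Red points are the 22 members higher in RasV12 and blue points the 36 lower ones; the solid line marks equal means, the dashed lines a difference of 0.7, and grey points beyond them had overlapping groups.

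Members in both directions included genes of the Ly6 family, small cysteine-rich proteins that are mostly anchored to the outer face of the cell membrane. With 16 added to the signal, CG31676 had the largest difference of the higher members, and with 1 added, CG44838 and CG12290 exceeded it, at 3.32 and 2.23 against 2.08. Its signals were 536, 379.6 and 412 in RasV12 and 91.4, 95.9 and 123 in sSpi, replicates 1 to 3 in order, a log2 difference of 1.93 ± 0.15 (SE, n = 3 per genotype). CG14275 was lower in RasV12, with signals of 75.2, 55.0 and 47.5 in RasV12 and 248, 328 and 272 in sSpi and a log2 difference of -2.0 ± 0.16. For both genes the genotypes were far apart: the nearest arrays differed 3.08-fold for CG31676 and 3.30-fold for CG14275 on the signal scale.

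Of 20 other genes of a Ly6 list written after the members were known, 18 were measured and 12 had a mean signal of at least 25, with log2 differences from -0.89 to 0.58. The gene bero met the size and separation criteria and was lower in RasV12, at 669, 679 and 809 in RasV12 and 1338, 1491 and 1207 in sSpi, a log2 difference of -0.89. The signals of twit were 1199, 757 and 996 in RasV12 and 1458, 1594 and 1362 in sSpi (-0.59). On the other side, CG6329 measured 169, 180.1 and 177 in RasV12 and 122, 116 and 100.2 in sSpi (0.58). The Ly6 gene CG7781 lies next to CG14275 on the chromosome and was dim, at 7.64, 17.3 and 18.8 in RasV12 and 29.0, 30.4 and 40.1 in sSpi. Its log2 difference of -0.699 and its mean signal of 23.9 both fell just short of the rule. The genes bou and CG9338 had separated groups but small differences, of 0.35 and -0.37, and crok, a septate junction gene, differed by 0.00361.

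A second probe set of CG31676 went the other way. It measured 52.5, 43.3 and 50.8 in RasV12 and 92.7, 66.1 and 69.1 in sSpi, a log2 difference of -0.49 ± 0.15, again with groups that did not overlap. CG31676 is therefore a member by 1 of 2 probe sets, and its direction differs between them. The probe sets could not be placed on transcripts here, because the files hold no probe positions.

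The same held in part for 2 other higher members. CG44838, which the platform annotation still calls CG14180, was near background in sSpi by its member probe set, at 39.0, 87.1 and 55.2 in RasV12 and 4.33, 5.71 and 4.53 in sSpi, a log2 difference of 1.83 ± 0.22. Adding 1 in place of 16 gave 3.32 and adding 64 gave 0.84. The current record of CG44838 lists CG14180 as an older locus tag, and 3 further probe sets of it differed by -0.28, -0.18 and 0.25 with overlapping groups. CG11357, of a family of galactosyltransferases that extend sugar chains on proteins and lipids, measured 103, 82.9 and 59.8 in RasV12 and 24.1, 12.4 and 25.3 in sSpi by its member probe set, a log2 difference of 1.42 ± 0.21. Its other probe set measured 148, 93.6 and 127 in RasV12 and 138, 172 and 160.2 in sSpi, a log2 difference of -0.33 ± 0.16 with overlapping groups. In these 3 genes, no probe set other than the member met the rule.

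Of the 55 genes, 13 had 2 or more probe sets and 42 had 1. Among 18 further probe sets of these genes that did not meet the rule, 13 differed in the direction of the member. Of these 13, 7 had groups that did not overlap. The other 5 differed in the opposite direction, and only that of CG31676 had separated groups. Over all probe sets of 1 gene with a mean signal of at least 25, groups were separated for 10.1% higher and 11.4% lower. Of the 18, 3 had a mean signal under that minimum, and 1 of CG45105 among them is counted in the 7. The genes were chosen by the same contrast, so nothing is read from these shares. CG31176, CG32354 and CG34347 were members by 2 probe sets each. CG31176 gave 57.4, 61.5 and 70.6 in RasV12 and 148, 149 and 150.2 in sSpi by 1 probe set and 90.4, 75.8 and 78.0 in RasV12 and 159, 174 and 181 in sSpi by the other, with log2 differences of -1.06 ± 0.11 and -0.94 ± 0.11. The third probe set of CG32354 also lay lower in RasV12, at -0.52, as did the second of CG4098, at -0.55, and on the higher side the second of CG43861, at 0.65. All 3 of these had separated groups and fell short of the size criterion.

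**Figure D2:**
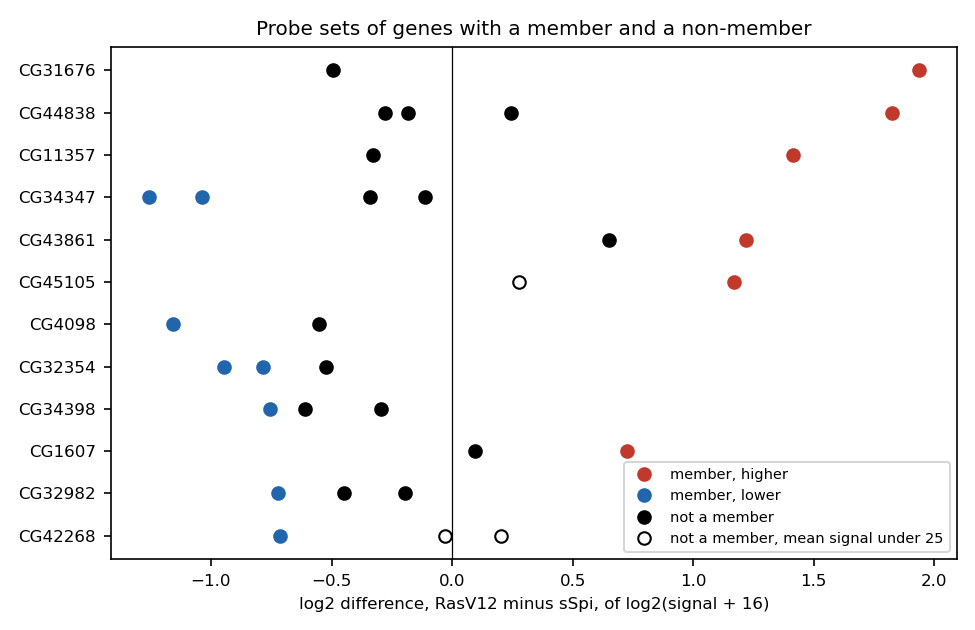
Log2 difference (RasV12 minus sSpi, horizontal axis) of every probe set of the 12 genes that have both a member probe set (red or blue) and a non-member one (black, open where the mean signal is under 25). For CG31676, CG44838 and CG11357 the black points lie on the far side of 0 or near it, while those of CG43861, CG4098, CG32354 and CG34398 lie on the same side as the member.

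The higher members CG9416, CG6357, CG4914, CG3355 and CG4408 belong to several families of peptidases and proteases. The share of such genes among all CG-numbered probe sets was not counted, so nothing is read from their number. CG9416, a metallopeptidase of the M28 family, measured 252, 400.2 and 389 in RasV12 and 98.7, 124 and 66.8 in sSpi, a log2 difference of 1.70 ± 0.22. All 3 RasV12 values were at least 2.03-fold the highest sSpi value. CG6357, a papain-like cysteine protease, measured 73.0, 95.9 and 129 in RasV12 and 24.4, 20.5 and 32.3 in sSpi, a log2 difference of 1.45 ± 0.19. CG4914 and CG3355 are trypsin-like serine proteases. CG4914 measured 254, 423 and 522 in RasV12 and 162, 186 and 126 in sSpi, a log2 difference of 1.22 ± 0.23, and within RasV12 replicate 1 was the low array. CG3355 measured 48.6, 36.9 and 79.4 in RasV12 and 29.7, 16.2 and 6.80 in sSpi, a log2 difference of 1.09 ± 0.28, with a wide spread in both genotypes. CG4408, a metallocarboxypeptidase, was at 88.7, 93.4 and 82.4 in RasV12 and 54.8, 45.5 and 40.2 in sSpi with little spread, a log2 difference of 0.73 ± 0.13.

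Among 6 measured relatives of CG9416 in the M28 family, CG11961 was the 1 with a mean signal of at least 25, at 303, 284 and 289.7 in RasV12 and 299, 295 and 313 in sSpi, a log2 difference of -0.05. No relative met the criteria. A further serine protease gene, CG9737, fell just short of the rule, at 86.3, 88.1 and 69.4 in RasV12 and 45.7, 40.05 and 46.2 in sSpi, a log2 difference of 0.69.

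Enzyme and transporter genes were also among the higher members. CG11899 encodes phosphoserine aminotransferase, the middle step of serine synthesis, and measured 165, 216 and 253 in RasV12 and 89.8, 119.7 and 80.6 in sSpi, a log2 difference of 1.01 ± 0.17. CG6287, the dehydrogenase of the first step, measured 405, 481 and 691 in RasV12 and 408, 460.4 and 293 in sSpi with overlapping groups and a log2 difference of 0.42. The phosphatase gene aay, of the last step, was dim with separated groups, at 23.8, 26.4 and 24.8 in RasV12 and 13.2, 20.0 and 16.02 in sSpi (0.34). CG1607, an amino acid transporter of the SLC7 family, measured 401, 445 and 349 in RasV12 and 225, 176 and 321 in sSpi, a log2 difference of 0.72 ± 0.19, while its second probe set differed by 0.09 with overlapping groups. CG17919, a phosphatidylethanolamine-binding protein, was just inside the size criterion at 169.6, 194 and 235 in RasV12 and 135, 97.1 and 113 in sSpi, a log2 difference of 0.72 ± 0.15. None of the 4 measured SLC7 relatives or the 4 measured phosphatidylethanolamine-binding relatives met the criteria.

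The 12 largest differences on the higher side were completed by CG45105, CG5653, CG43861, CG13203 and CG12290. CG45105 had the smallest error of them, with signals of 100.0, 101 and 112 in RasV12 and 39.9, 38.7 and 34.2 in sSpi and a log2 difference of 1.17 ± 0.12. CG5653 was also tight, at 101, 98.2 and 85.6 in RasV12 and 34.1, 33.3 and 48.3 in sSpi (1.03 ± 0.14), and CG43861 measured 71.8, 96.5 and 115 in RasV12 and 31.7, 24.5 and 37.4 in sSpi (1.22 ± 0.18). In these 3 the genotypes were well separated by the member probe sets. A second probe set of CG45105 was near background, at 5.92, 4.16 and 6.55 in RasV12 and 1.53, 1.65 and 2.07 in sSpi (0.28). CG13203 had nearly equal RasV12 values, at 66.3, 68.1 and 69.3, and scattered sSpi values, at 7.01, 41.3 and 27.7, a log2 difference of 1.12 ± 0.28. Without sSpi replicate 1, its lowest array, the difference was 0.75. CG12290 measured 51.7, 41.1 and 38.3 in RasV12 and 5.98, 4.69 and 20.4 in sSpi (1.22 ± 0.23), and sSpi replicate 3 was 3.42 times the next sSpi array.

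The remaining higher members were CG15550, CG14075, CG5888, CG9304, CG1146 and CG8420, with log2 differences from 0.74 to 1.0. Of these, CG9304 was the most even within RasV12, at 88.7, 82.4 and 84.8 in RasV12 and 50.2, 28.2 and 43.3 in sSpi. CG15550, CG14075 and CG5888 were highest in RasV12 replicate 1, and CG14075 measured 196, 118 and 119.8 in RasV12 and 72.7, 37.8 and 95.4 in sSpi. Without RasV12 replicate 1 and sSpi replicate 2 together, the log2 difference of CG14075 was 0.44 in place of 0.95. CG15550 was dim in sSpi, at 58.4, 33.9 and 32.0 in RasV12 and 12.1, 9.91 and 14.8 in sSpi. CG5888 measured 84.4, 65.3 and 56.2 in RasV12 and 23.6, 24.6 and 35.7 in sSpi and CG1146 55.2, 69.2 and 84.8 in RasV12 and 26.4, 49.4 and 29.4 in sSpi, where sSpi replicate 2 came closest to RasV12. CG8420 lay at the edge of the separation criterion, at 38.8, 83.6 and 66.8 in RasV12 and 38.3, 21.2 and 32.2 in sSpi: its lowest RasV12 value was 1.01 times its highest sSpi value.

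**Figure D3:**
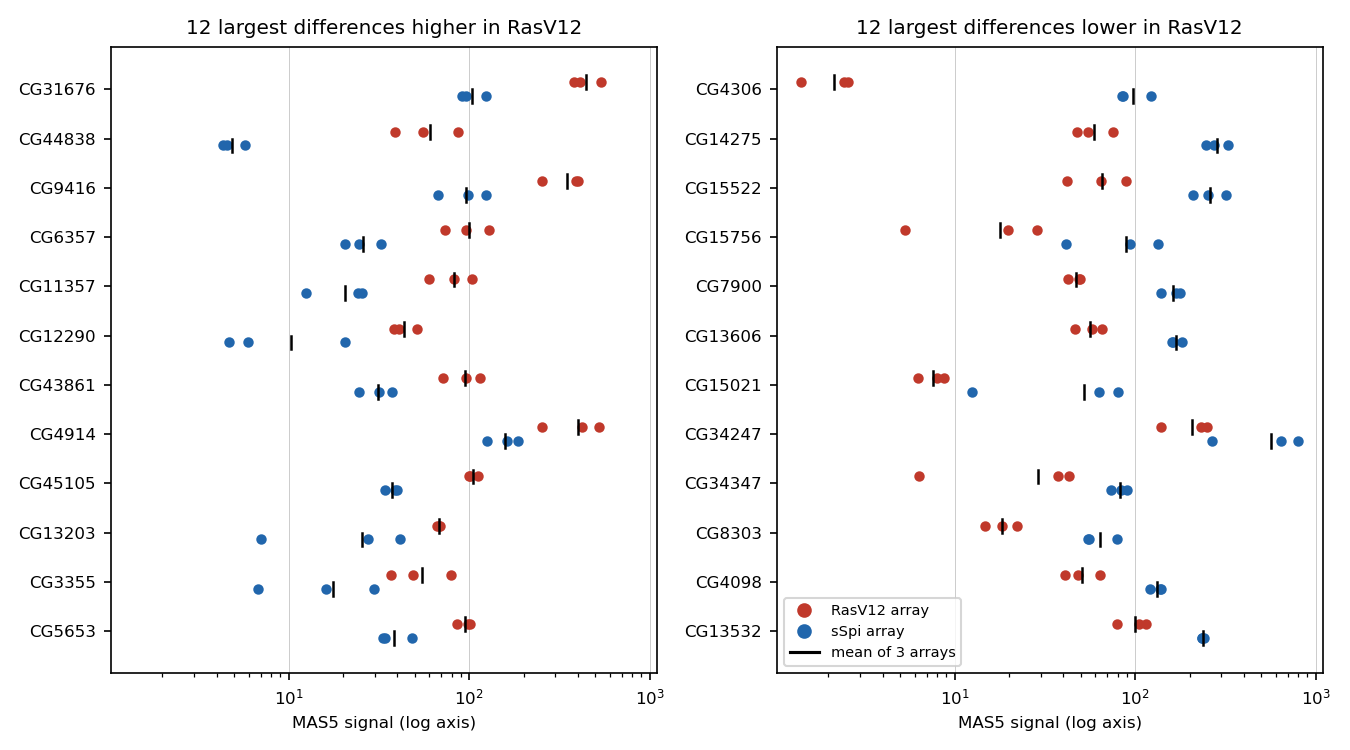
MAS5 signals (horizontal log axis) of the 12 probe sets with the largest difference in each direction. Each point is 1 array, red for RasV12 and blue for sSpi, and black bars are the means of 3 arrays; CG4306 (RasV12 mean 2.14) and CG44838 (sSpi mean 4.86) lie closest to background in the lower genotype.

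On the lower side, CG4306 had the largest difference of all members with 16 added to the signal. It encodes a gamma-glutamylcyclotransferase, an enzyme family of glutathione breakdown, and measured 2.55, 1.42 and 2.45 in RasV12 and 85.8, 84.6 and 122 in sSpi, a log2 difference of -2.63 ± 0.17. The RasV12 values were at background, so the size depends on the constant added before the logarithm: adding 1 gave -4.97 and adding 64 gave -1.28. With 64 added, CG31676 (1.59), CG14275 (-1.49), CG9416 (1.35) and CG15522 (-1.33) had larger differences. The relatives CG2811 and Tina-1 differed by -0.24 and -0.32 with overlapping groups.

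Other enzyme genes lower in RasV12 belong to families of lipid, nucleotide and sugar metabolism. CG7900, of the fatty acid amide hydrolase family, measured 42.5, 49.5 and 49.0 in RasV12 and 177, 167 and 139 in sSpi, a log2 difference of -1.49 ± 0.13. CG4098, a Nudix hydrolase, a family that cleaves nucleoside diphosphate derivatives, measured 40.8, 63.7 and 48.5 in RasV12 and 139, 137 and 121 in sSpi, a log2 difference of -1.16 ± 0.14. CG15117, a beta-glucuronidase, measured 59.1, 50.9 and 54.2 in RasV12 and 140.3, 138 and 125 in sSpi, a log2 difference of -1.09 ± 0.11. CG8303, of the fatty acyl-CoA reductase family, measured 22.3, 14.7 and 18.2 in RasV12 and 79.5, 55.0 and 55.8 in sSpi, a log2 difference of -1.20 ± 0.17. In each of these 4, the highest RasV12 value lay well below the lowest sSpi value, by 1.89-fold to 2.80-fold.

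No listed relative of these enzymes met the criteria. The amidases CG5112, CG5191 and CG8839 differed by 0.02, 0.02 and -0.32. The second beta-glucuronidase gene, betaGlu, measured 73.7, 85.6 and 76.3 in RasV12 and 63.99, 52.6 and 57.2 in sSpi and was higher in RasV12, at a log2 difference of 0.35. CG8306, a reductase gene next to CG8303 on the chromosome, differed by -0.10, and the 6 reductase relatives with a mean signal of at least 25 ranged from -0.38 to 0.25. CG4991, an amino acid transporter of the SLC36 family, was dim, at 22.2, 22.6 and 10.3 in RasV12 and 35.4, 50.6 and 44.3 in sSpi, a log2 difference of -0.80 ± 0.19, and none of its 7 measured relatives met the criteria.

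Several genes without a stated role had a wide gap between genotypes. CG15522 measured 42.0, 64.5 and 89.3 in RasV12 and 254, 319 and 209 in sSpi, a log2 difference of -1.79 ± 0.22. CG13606 measured 46.6, 65.5 and 57.4 in RasV12 and 160.1, 163 and 182 in sSpi (-1.35 ± 0.13), and CG13532 measured 79.2, 105 and 115 in RasV12 and 234, 241 and 235 in sSpi (-1.14 ± 0.13). The sSpi values of CG13532 lay within 1 narrow band, and RasV12 replicate 1 was the lowest array. CG31705 measured 178, 173 and 198 in RasV12 and 381, 418 and 454 in sSpi (-1.12 ± 0.11). CG14696 measured 130.1, 138 and 133 in RasV12 and 249, 309.9 and 329 in sSpi (-1.05 ± 0.12). In CG31705 and CG14696 the RasV12 arrays lay close together and the sSpi arrays were more spread.

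A second set was uneven within a genotype. CG15756 measured 5.33, 28.6 and 19.8 in RasV12 and 133, 94.0 and 41.1 in sSpi, a log2 difference of -1.60 ± 0.36, with RasV12 replicate 1 and sSpi replicate 3 the lowest of their genotypes. CG34247 measured 139, 233 and 250.1 in RasV12 and 797, 642 and 265 in sSpi (-1.29 ± 0.36), and its lowest sSpi value was 1.06 times its highest RasV12 value. CG15021 measured 8.67, 7.95 and 6.25 in RasV12 and 12.4, 80.7 and 62.9 in sSpi (-1.35 ± 0.38), with sSpi replicate 1 near the RasV12 level. In these 3 genes, 2 sSpi arrays lay far above RasV12 and the other lay close to it.

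Low values of sSpi replicate 3 are given here for chosen pairs of a lower member and its neighbour. Cpr12A, a cuticle protein gene of the chitin-binding Rebers-Riddiford family, lies next to CG15756 and also met the size and separation criteria, at 94.6, 89.7 and 101 in RasV12 and 280.1, 257 and 140.5 in sSpi, a log2 difference of -1.07. CG13060 measured 374, 335 and 349 in RasV12 and 783, 769 and 452 in sSpi (-0.85 ± 0.19) and its neighbour CG13041 708, 693 and 859.9 in RasV12 and 1262, 1188 and 921 in sSpi (-0.56). All 4 genes had sSpi replicate 3 as the lowest sSpi array. The share of all neighbours with that low array was not counted, so nothing is read from these pairs. Among the 36 lower member probe sets, sSpi replicate 3 was the lowest sSpi array for 14 and sSpi replicate 1 for 17. The member probe set of CG13060 carries a suffix that marks a set built with relaxed design rules, so cross-hybridisation between similar genes cannot be told apart from its own signal. No 2 members were next to each other. Of 26 neighbours of lower members with a mean signal of at least 25, 1, Cpr12A, met the criteria in the same direction, a share of 3.85%, against 0.941% of the neighbours of all measured genes. Of 15 neighbours of higher members none did, against 1.03% of the neighbours of all measured genes.

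RasV12 replicate 1 was the lowest RasV12 array for 22 of the 36 lower probe sets and for 11 of the 22 higher ones. A low RasV12 array itself helps a probe set to meet the rule in the lower direction, and the share over all probe sets was not counted. In 8 of the 36 the lowest RasV12 array was exceeded more than 2-fold by the next. The low array was replicate 3 for CG5399 and CG4991 and replicate 1 for CG11382, CG15756, CG16868, 1 probe set of CG32354 and both of CG34347. The gap was widest for CG34347, with 6.35, 42.9 and 37.2 in RasV12 and 73.7, 83.8 and 90.6 in sSpi by 1 probe set (-1.26 ± 0.31) and 36.7, 84.5 and 99.5 in RasV12 and 194, 151 and 135 in sSpi by another (-1.04 ± 0.26), which has an incomplete set of probes by its suffix. Its other 2 probe sets differed by -0.34 and -0.11 with overlapping groups. The set at -0.11 had a mean signal of 3702, against 32.2 to 117 for the other probe sets of CG34347. Whether it measures this gene alone was not tested. Both were also lowest in RasV12 replicate 1. Without that array the second member probe set of CG34347 fell short of the size criterion, at -0.694, as did the first probe set of CG32354 described below, at -0.696, and the difference of the first of CG34347 was -0.82. CG11382, at 51.3, 105 and 120.5 in RasV12 and 182, 188 and 163 in sSpi, went from -0.90 to -0.59 without it, and CG16868, at 20.9, 54.7 and 43.5 in RasV12 and 73.2, 82.0 and 78.2 in sSpi, from -0.80 to -0.53. The direction in each is fixed by the separated groups that the rule required, so leaving out an array could not change it.

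The remaining lower members were CG15414, CG32354, CG4168, CG15236, CG14598, CG13044, CG6912, CG10433, CG34221, CG5399, CG34398, CG32982 and CG42268, with log2 differences from -1.0 to -0.71. CG15414 measured 40.1, 40.4 and 66.1 in RasV12 and 85.7, 159 and 101 in sSpi, with sSpi replicate 2 the highest array. CG4168 was dim, at 9.77, 22.9 and 10.5 in RasV12 and 49.9, 46.4 and 29.5 in sSpi, and RasV12 replicate 2 was 2.18 times the next RasV12 array. CG32354 measured 7.99, 30.2 and 19.3 in RasV12 and 51.2, 44.0 and 53.4 in sSpi by its first member probe set and 44.2, 48.8 and 37.4 in RasV12 and 99.8, 84.5 and 75.8 in sSpi by its second. RasV12 replicate 1 was the lowest array by the first and not by the second. CG15236 measured 29.2, 19.8 and 24.7 in RasV12 and 51.7, 57.3 and 62.2 in sSpi. For CG14598 the signals were 25.8, 28.8 and 35.9 in RasV12 and 80.6, 58.0 and 60.9 in sSpi. Those of CG34221 were 25.6, 31.9 and 24.3 in RasV12 and 62.7, 60.3 and 50.3 in sSpi. CG13044, CG6912 and CG10433 lay between 43.1 and 66.6 in RasV12 and between 82.6 and 154 in sSpi. CG5399 measured 37.4, 38.0 and 17.4 in RasV12 and 66.3, 71.6 and 48.7 in sSpi. CG34398 was a member by 1 of 3 probe sets, and the other 2, at -0.61 and -0.29, also had separated groups. At the edge of the size criterion, CG42268 measured 200.2, 210.3 and 211 in RasV12 and 313, 377 and 361 in sSpi (-0.71) and CG32982 60.9, 81.6 and 66.9 in RasV12 and 121, 130.0 and 124 in sSpi (-0.72). Just outside it lay CG46339, at 245, 243 and 248 in RasV12 and 496, 335 and 406 in sSpi (-0.697). CG42268 and CG32982 were also members by 1 of 3 probe sets each. The others of CG42268 were dim with overlapping groups, at -0.03 and 0.20. Those of CG32982 differed by -0.45 with separated groups and by -0.20 with overlapping groups.

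**Figure D4:**
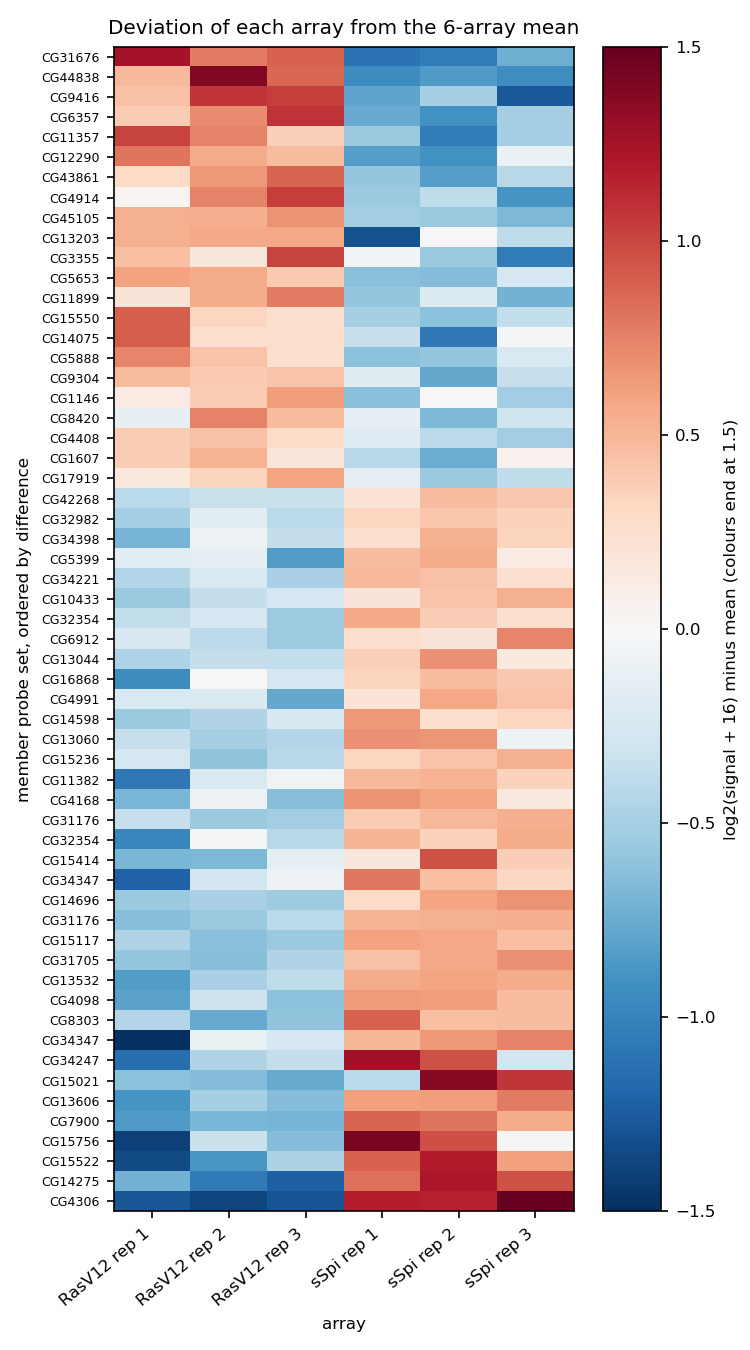
Deviation of log2(signal + 16) from the mean over 6 arrays for each of the 58 member probe sets (rows, ordered by difference) and each array (columns). Red is above and blue below the mean, with colours ending at 1.5; the darkest blue cells of CG34347 and CG11382 lie in RasV12 replicate 1.

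Markers of other cells and of larval stage were set beside the members, each list given by its mean deviation from the 6-array mean. The member scores were 0.50 to 0.61 in RasV12 and -0.63 to -0.50 in sSpi for the higher members, and -0.70 to -0.44 and 0.47 to 0.63 for the lower ones, as the rule requires. Among 10 measured neuronal genes the score was -0.36 in RasV12 replicate 1 and close to 0 in the other RasV12 arrays, against 0.10 to 0.14 in sSpi. Their summed signal was 1408 to 1846 in RasV12 and 2133 to 2251 in sSpi, without overlap. Most of that sum came from Nrg, cpo and Appl, with log2 differences of -0.57, -0.43 and -0.25. The neuronal genes futsch and fne differed the other way, by 0.28 and 0.38. The synaptic gene brp showed the pattern of CG34347, at 3.31, 31.6 and 29.7 in RasV12 and 44.3, 49.9 and 46.0 in sSpi. The gene chp was also low in RasV12 replicate 1, at 69.6, 199 and 221 in RasV12 and 232, 186 and 171 in sSpi. The pan-neuronal gene elav was level, at 103, 96.9 and 93.0 in RasV12 and 102, 106 and 109 in sSpi. Of the RasV12 arrays, replicate 1 was the highest for elav, Nrg, fne and Rbp6.

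Groups that did not overlap are set against 11.4% lower and 10.1% higher over all probe sets of 1 gene with a mean signal of at least 25. Of the 10 neuronal genes, 3 had separated groups lower in RasV12 and 1 higher. The higher one, fne, had a mean signal of 14.9, under the minimum of that background. Of 9 genes in the glial list, which are not all particular to glia, 3 had separated groups lower and 2 higher in RasV12. The summed signal of the 9 was 1344 to 1457 against 1814 to 1935. The largest share of that sum came from Gli, a septate junction gene, at 693, 743 and 778 in RasV12 and 1235, 1164 and 1168 in sSpi. The glial transcription factor gene repo overlapped between genotypes, at 94.9, 88.7 and 115 in RasV12 and 136, 100.5 and 143 in sSpi. The gene that starts glial fate, gcm, was 1 of the 2 higher ones but near background, with a mean signal of 7.08. The other, nrv2, was well above background, at 92.3, 110 and 95.2 in RasV12 and 63.0, 40.9 and 84.8 in sSpi (0.58). Summed signals of 9 plasmatocyte genes (449.5 to 661 against 458 to 626), of 6 muscle genes (499 to 843 against 318 to 1057) and of 5 antennal genes overlapped. That of 5 fat body genes was 722 to 1142 against 385 to 712, and most of it came from Obp44a, an odorant-binding protein gene, at 616, 1025 and 1063 in RasV12 and 457, 459 and 298 in sSpi (1.11). The storage protein gene Lsp2 and the fat body gene Fbp1 differed the other way, by -0.30 and -0.68, with overlapping groups.

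The 11 measured genes of the eye disc list went in both directions, which their mean score of 0.03 to 0.21 in RasV12 and -0.21 to -0.05 in sSpi does not show. The list is labelled as behind the furrow, but its genes are not all particular to that region. Of the 11, 4 had separated groups higher and 2 lower in RasV12. The transcription factor genes lz, B-H1 and ato met the size and separation criteria higher in RasV12, with log2 differences of 1.90, 1.35 and 1.10. The photoreceptor gene svp met them lower, at -0.87, and ro, also a photoreceptor gene, had separated groups at -0.61.

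Scores of 15 ecdysone response genes, which follow larval stage, were -0.37, 0.45 and 0.55 in RasV12 and 0.07, -0.12 and -0.58 in sSpi. The salivary glue score was 1.36 in sSpi replicate 2 and below 0 on the other 5 arrays. The muscle score was 0.28, -0.16 and 0.06 in RasV12 and -0.51, -0.26 and 0.59 in sSpi. Mlc2, a myosin light chain gene, measured 557, 282 and 289 in RasV12 and 163, 209 and 655 in sSpi. The part of neurons, glia, muscle, fat body, eye cells, stage or salivary tissue in the differences of the members was not tested.

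**Figure D5:**
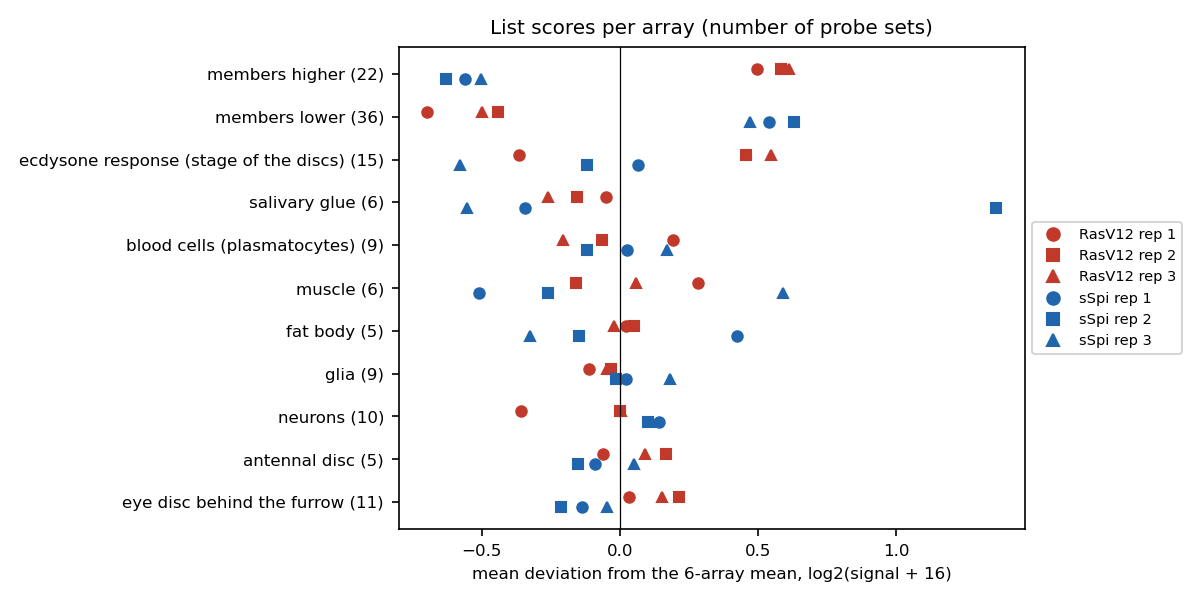
List scores per array: the mean deviation of log2(signal + 16) from the 6-array mean over the members and over 9 marker lists (number of probe sets in brackets), red for RasV12 and blue for sSpi, with a marker shape per replicate. The members part the genotypes by construction; the ecdysone, glue and neuron rows show single arrays far from the others of their genotype.

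Without RasV12 replicate 1 and sSpi replicate 2, 35 CG-numbered probe sets met the rule in the higher direction and 35 in the lower one. Of the 22 higher members 18 were among them and of the 36 lower members 27. The sign of a member's difference cannot change when arrays are left out, because the rule required separated groups. With fewer arrays the separation criterion is easier to meet. Members that missed the rule on the higher side were CG14075, CG15550, CG1607 and CG9304. On the lower side they were CG34398, CG11382, CG15414, CG32982, CG16868, CG15021, CG42268, CG13044 and CG10433. Without sSpi replicate 3 alone, 27 higher and 39 lower probe sets met the rule, and these included 20 of the 22 higher and 32 of the 36 lower members.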

How the data were processed

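The deposited values are linear intensities, the MAS5 signal of each probe set, per the submitters' processing notes. Their mean, with 2% trimmed at both ends, was 100.0 on all arrays. No version and no genome build are given in the sources used here. The table held 14010 probe sets on 6 arrays, and 0 columns were left unmatched. Of 13966 probe sets without controls, 12443 had 1 gene symbol in the platform annotation. Symbols were updated by gene identifier, or for 23 identifiers by old locus tag, to the table of assembly Release 6 plus ISO1 MT, used for names and neighbours only.

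The members and lists were chosen with earlier results of these data known. Signals were taken as log2(signal + 16). Standard errors came from lmFit and eBayes with trend (limma 3.58.1, R 4.3.3) on the 8380 probe sets, 60% of the total, with the highest mean signal. The fit was tested on simulated data. No p-value is read for the members. Named are the 12 largest differences in each direction, members with several probe sets, uneven arrays or values near the threshold, and genes of family lists. Other genes were added after their values were seen. Protein, promoter and probe sequences were not used here, so the similarity of member proteins was not examined. Same-numbered arrays did not deviate together (correlations of -0.11, -0.04 and -0.14), so numbers were not taken as pairs. Alternatives were other pseudocounts, filters, scalings and size criteria, arrays left out and the replicate block. Figures used matplotlib 3.10.9.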

Additional observations from a re-analysis of the deposited data

How the results depend on the processing

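The number of higher members was 37 with a pseudocount of 1, 9 with 64, 46 with a size criterion of 0.5 and 13 with 1, and 35 without RasV12 replicate 1 and sSpi replicate 2. The number of lower members was 51 with a pseudocount of 1, 15 with 64, 58 with a size criterion of 0.5 and 18 with 1. With 1 array left out in turn, the rule gave 21 to 31 higher and 33 to 44 lower members, and these held 17 to 20 of the 22 higher and 28 to 36 of the 36 lower ones. The fewest were kept without RasV12 replicate 2 or sSpi replicate 2 on the higher side (17 each), and without RasV12 replicate 1 (28) or sSpi replicate 2 (29) on the lower side. Quantile normalization and median scaling kept 21 of the 22 higher members, all but CG8420, and all 36 lower ones. Differences of the 24 probe sets named first moved by more than the spread between arrays in 42 of 264 values. Of these, 18 were with a pseudocount of 1 and 21 with 64. None changed sign, which the separated groups fix in advance for other pseudocounts and for arrays left out.

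In the fit over the whole table, 219 of 8380 probe sets, 2.61%, passed a limma adjusted p of 0.05. The count was 138 without a signal filter and ranged from 89 to 367 with 1 array left out: 367, 101 and 149 without RasV12 replicates 1, 2 and 3, and 99, 89 and 136 without sSpi replicates 1, 2 and 3. The cause was not tested. With the replicate block it was 159, and 0 of 6 arrays correlated best with the array of their own number. The number of arrays limits the precision, and signals near background limit the size of the differences of CG4306 and CG44838.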
